A study of Mus musculus with 48 samples.

Results

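Polycomb genes were read across 8 nascent RNA libraries of mouse embryonic stem cells. The members are Ezh2, Eed, Suz12, Jarid2, Mtf2, Rnf2, Ring1, Cbx7, Pcgf6 and Kdm2b, taken by name from a table of counts per gene, and all 10 were found among its 55376 genes. The cells were TCF2.2, an embryonic stem cell line grown on gelatin in serum-free 2i medium, with strain C57BL/6 in the labels. RNA was labelled with 4-thiouridine at 500 µM for 5 min, pulled down through this label and sequenced, so the counts follow new synthesis. Each of the 4 groups had 2 libraries, called biological duplicates in the series' design. The first pair of groups received BRM014, which blocks BRG1 and BRM, the ATPases of the SWI/SNF remodellers, at 10 µM, or the solvent DMSO, each for 3 h. The second pair received lentivirus with an shRNA against Chd4, the ATPase of the NuRD complex, or with a scrambled shRNA, followed by 24 h in medium with 1.5 µg/mL puromycin. All groups carried the 4-thiouridine and ERCC spike-in RNA added by cell number, and both shRNA groups shared virus and selection. The question was how transcription changed with BRM014 and with the shRNA against Chd4, here for the genes that encode Polycomb proteins.

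Polycomb proteins keep developmental genes silent in stem cells through 2 families of complexes. Polycomb repressive complex 2 (PRC2) methylates lysine 27 of histone H3, with EZH2 as the enzyme and EED and SUZ12 as the core subunits it needs. JARID2 and MTF2 are accessory subunits that help to bring PRC2 to its sites. Polycomb repressive complex 1 (PRC1) attaches ubiquitin to histone H2A, with RNF2 (also RING1B) or RING1 as the E3 ligase. CBX7 reads the PRC2 mark in canonical PRC1, while PCGF6 and KDM2B belong to variant forms, and KDM2B binds unmethylated CpG sites in DNA.

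The promoters of the 3 members that passed the test in a comparison with their matched control are shown, since CpG-rich DNA is also what KDM2B binds. They are the 250 bases upstream of the RefSeq start in GRCm38.p6, 5′ to 3′ on the gene's strand, with each CG dinucleotide in capitals. Eed lies at chr7:89980977-89981226 on the minus strand, Suz12 at chr11:79992856-79993105 on the plus strand and Rnf2 at chr1:151500992-151501241 on the minus strand.
Eed: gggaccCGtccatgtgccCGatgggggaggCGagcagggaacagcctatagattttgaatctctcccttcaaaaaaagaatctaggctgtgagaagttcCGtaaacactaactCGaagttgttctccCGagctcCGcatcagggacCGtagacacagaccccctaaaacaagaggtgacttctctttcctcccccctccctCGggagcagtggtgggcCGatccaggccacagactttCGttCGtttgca
Suz12: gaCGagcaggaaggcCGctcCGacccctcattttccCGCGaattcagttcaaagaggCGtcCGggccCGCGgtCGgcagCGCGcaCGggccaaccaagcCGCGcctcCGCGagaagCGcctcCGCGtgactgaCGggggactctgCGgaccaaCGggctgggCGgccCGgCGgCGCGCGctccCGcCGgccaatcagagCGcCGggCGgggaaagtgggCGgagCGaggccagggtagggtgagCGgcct
Rnf2: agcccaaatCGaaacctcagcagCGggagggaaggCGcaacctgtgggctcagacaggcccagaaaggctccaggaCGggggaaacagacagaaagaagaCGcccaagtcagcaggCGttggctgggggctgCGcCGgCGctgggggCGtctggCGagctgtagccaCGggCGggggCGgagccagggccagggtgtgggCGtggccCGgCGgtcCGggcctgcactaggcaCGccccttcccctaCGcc
The Suz12 window held 37 CG dinucleotides, the Rnf2 window 20 and the Eed window 12. The median over 32851 RefSeq windows of this length was 6, and 2.2%, 17.9% and 33.5% of all windows held at least as many as Suz12, Rnf2 and Eed. Over the 15 windows of the 10 members the number ran from 2 to 38, and 14 windows were at or above the median. These counts describe the sequence and say nothing of binding.

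Total gene counts were 12977098 to 17128981 in the BRM014 and DMSO libraries and 6982354 to 12026026 in the shRNA libraries. A background was measured as counts per kb of exon over 1435 receptor genes of the olfactory and vomeronasal families, taken as silent in stem cells. It was 6.78 and 7.21 counts per kb in the libraries labelled Chd4 shRNA and 1.32 to 2.66 in the other 6. Chd4 itself was counted 730 and 760 times in the libraries labelled Chd4 shRNA and 806 and 618 times in the scrambled libraries. Relative to other expressed genes this was a log2 fold change of 0.57 ± 0.16 (SE, adjusted p = 0.00532, edgeR). This is against the direction of the label, so these libraries are called by their label throughout. Smarca4, which encodes BRG1, gave 0.59 ± 0.16 in the same comparison (adjusted p = 0.00536). The counts follow new synthesis and do not measure how much Chd4 mRNA or protein was left, so they are no check of the shRNA. BRM014 does not lower the RNA of its target, and Smarca4 is no check of that treatment. Each of 8 pluripotency markers lay at least 3-fold above background in every library. Levels are given as CPM, the count scaled by the library's total over expressed genes after TMM. The pluripotency markers summed to 1833 and 1771 CPM in the libraries labelled Chd4 shRNA, below the 2724 to 3288 CPM of the other 6, and the part of this in the results on those libraries was not tested. Summed CPM of the markers of other cell types was 6.92 to 9.13 for primitive endoderm, 12.7 to 17.6 for trophoblast, 27.1 to 33.8 for fibroblasts and 22.2 to 46.1 for neural cells in 6 libraries. It was 42.2 and 44.0, 37.2 and 39.9, 66.7 and 72.1, and 87.2 and 89.7 in the libraries labelled Chd4 shRNA, where 0 of 5, 2 of 5, 0 of 6 and 2 of 5 of these markers lay at least 3-fold above background, and 0 were without a count. In the other 6 libraries 0 to 1 of 5, 3 of 5, 1 of 6 and 3 of 5 lay at least 3-fold above background. The part of the background in the results on the libraries labelled Chd4 shRNA was not tested beyond the subtraction given with them.

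Of the 10 members, 8 were expressed, defined as a mean count at least 10-fold above the background expected for their exonic length, and 8272 genes of the table met this. Eed stood highest at 44.5-fold and Ezh2 next at 41.0-fold, and Pcgf6 (15.3-fold) and Jarid2 (13.3-fold) were the lowest of the 8. Ring1, at 7.16-fold, and Kdm2b, at 5.87-fold, fell short, so their test results are from a fit without a filter unless another setting is named. The mean is over all libraries, and in the BRM014 and DMSO libraries alone Ring1 stood at 13.2 to 15.4 times background. The table gives the genes in mm10 coordinates. The PRC2 genes were Ezh2 on chromosome 6 (47530139 to 47595341, minus strand), Eed on 7 (89954654 to 89980983, minus), Suz12 on 11 (79993106 to 80034123, plus), Jarid2 on 13 (44729474 to 44921643, plus) and Mtf2 on 5 (108065674 to 108109004, plus). The PRC1 genes were Rnf2 on chromosome 1 (151458004 to 151500955, minus strand), Ring1 on 17 (34020792 to 34024680, minus), Cbx7 on 15 (79915807 to 79971119, minus), Pcgf6 on 19 (47033617 to 47050906, minus) and Kdm2b on 5 (122870665 to 122989823, minus).

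Levels were compared between genes as CPM per kb of exon. In DMSO, Eed was highest at 12.6 ± 0.37 (SD, n = 2), followed by Ezh2 at 10.8 ± 0.68, Mtf2 at 8.73 ± 0.65, Cbx7 at 7.47 ± 1.09 and Suz12 at 6.17 ± 0.75. Then came Rnf2 at 4.73 ± 0.83, Pcgf6 at 4.23 ± 0.37, Jarid2 at 3.24 ± 0.28, Ring1 at 2.297 ± 0.19 and Kdm2b at 1.45 ± 0.33. Among neighbours in this order the libraries of Rnf2 and Pcgf6 overlapped, and with background subtracted those of Cbx7 and Suz12 did too. The 3 core subunits of PRC2 did not have equal CPM per kb of annotated exon, and Suz12 lay below both partners in DMSO, BRM014 and scrambled libraries. Whether their synthesis was unequal was not tested, since the transcript forms made were not measured. The order changed in the libraries labelled Chd4 shRNA, where Ezh2 led at 13.3 ± 0.14, Mtf2 followed at 12.5 ± 0.31, and Suz12 (9.61 ± 1.20), Eed (9.40 ± 0.92) and Cbx7 (9.34 ± 0.77) overlapped. With BRM014, Suz12 (7.16 ± 0.44), Rnf2 (7.04 ± 0.51) and Cbx7 (6.75 ± 0.26) overlapped behind Eed, Ezh2 and Mtf2. In bulk RNA, fewer cells that make a transcript and less transcript per cell cannot be told apart.

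**Figure D1:**
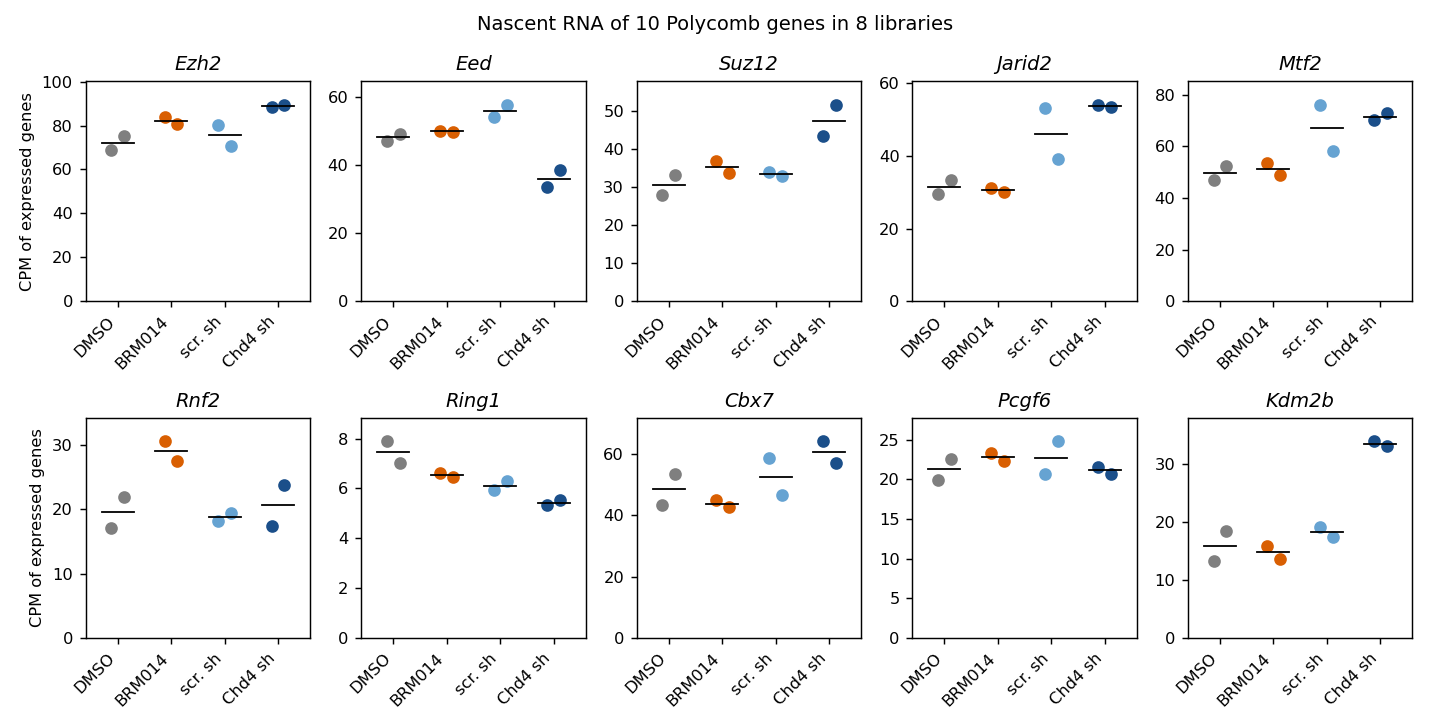
Level of each Polycomb gene in CPM of expressed genes (linear axes from 0, one per gene), with 1 point per library and a line at the mean of the 2 libraries of a group; scr. sh and Chd4 sh are the libraries labelled scrambled and Chd4 shRNA. Rnf2 stood highest in both BRM014 libraries (30.5 and 27.6), and Eed lowest in the libraries labelled Chd4 shRNA (33.5 and 38.5).

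With BRM014, Rnf2, the main E3 ligase of PRC1 in embryonic stem cells, was the 1 member that passed the test. Of the 8 expressed members, 1 rose and 0 fell, where 7.75% of all 8272 expressed genes passed the test, 3.12% higher and 4.63% lower. The median log2 fold change of the 8 was 0.074, and that of all expressed genes was 0.0050. Rnf2 had 382 and 482 counts with BRM014 and 275 and 388 with DMSO, which is 30.5 and 27.6 CPM against 17.1 and 21.9 CPM. Both treated libraries lay above both controls, as was so, up or down, for 48.5% of expressed genes. The rise was 1.48-fold, a log2 fold change of 0.57 ± 0.14 (SE, adjusted p = 0.0129, edgeR quasi-likelihood test with Benjamini-Hochberg adjustment, n = 2 against 2).

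The call on Rnf2 was lost without BRM014 library r1 (0.50, adjusted p = 0.126) or DMSO library r1 (0.38, adjusted p = 0.13), with DESeq2 (0.57, adjusted p = 0.0626), without a filter (0.57, adjusted p = 0.123) and on the 3 ERCC scales (0.55 to 0.65, adjusted p = 1). Its direction held in each of these. The predicted gene Gm36527 lies on the same strand over 3029 bases of Rnf2, with a mean of 72.1 counts and a log2 fold change of 0.93 with BRM014. How reads of both were divided is not stated, so the count of Rnf2 is uncertain. Genes on the same strand also overlap Eed (Gm45120, 408 bases, mean 3.12 counts) and Kdm2b (Gm43411 and Gm44574, with means of 10.9 and 3.12 counts). Other members overlap genes on the opposite strand, among them Mtf2 with Tmed5 (mean 159 counts), Cbx7 with Apobec3 (480) and Kdm2b with Rnf34 (216), and the strand counted is not given.

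None of the 3 core PRC2 genes passed the test with BRM014. Ezh2 had 83.9 and 80.5 CPM against 68.7 and 75.1 with DMSO, a log2 fold change of 0.19 ± 0.13 (adjusted p = 0.434). Suz12 had 36.9 and 33.8 CPM against 27.9 and 33.1 (0.21 ± 0.13, adjusted p = 0.4), and Eed 49.9 and 49.8 against 47.2 and 49.2 (0.049 ± 0.13, adjusted p = 0.885). All 3 had both treated libraries above both controls, as did 25.1% of expressed genes, by margins the fit did not separate from the spread. The accessory genes overlapped between groups. Jarid2 had 31.2 and 29.96 CPM against 29.6 and 33.4, and Mtf2 had 53.7 and 48.7 CPM against 47.1 and 52.4. Among PRC1 genes, Cbx7 gave -0.15 ± 0.14 and Pcgf6 0.10 ± 0.13, with adjusted p of 0.607 and 0.73. Ring1 gave -0.19 ± 0.15 and Kdm2b -0.11 ± 0.16 in the fit without a filter, with adjusted p of 0.783 and 0.889 over 54064 genes.

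**Figure D2:**
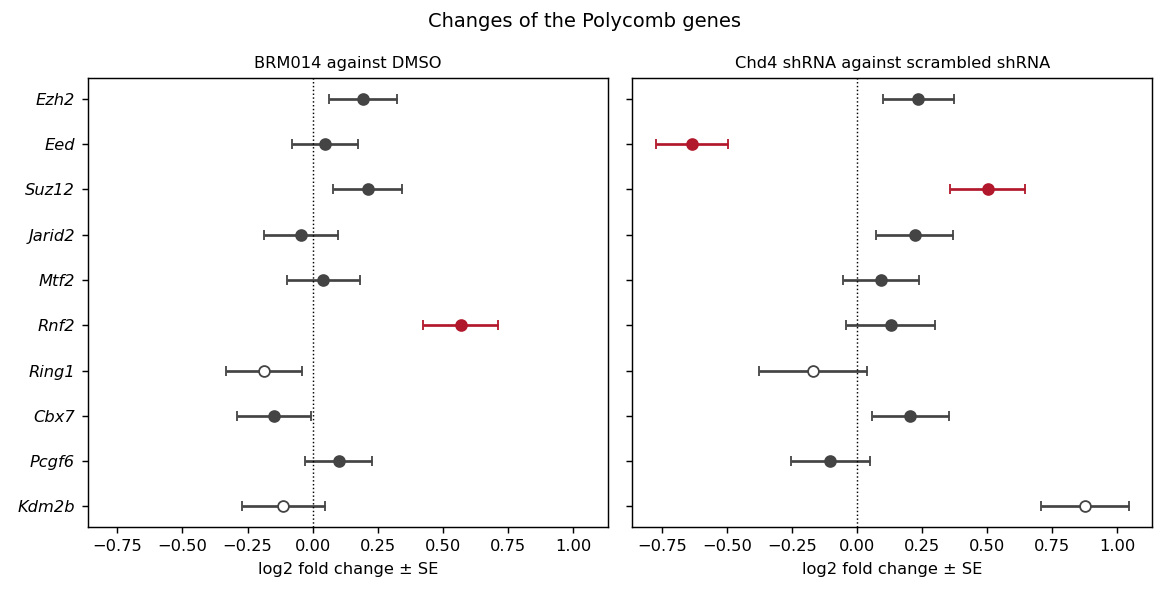
Log2 fold change of each Polycomb gene with its SE (horizontal axis) for BRM014 against DMSO (left) and for the libraries labelled Chd4 shRNA against scrambled (right); red points passed the test among expressed genes, and open points come from the fit without a filter. Rnf2 is the red point on the left (0.57), and Eed (-0.64) and Suz12 (0.50) are those on the right.

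Core subunits of PRC2 differed in direction in the libraries labelled Chd4 shRNA. Relative to other expressed genes Eed fell and Suz12 rose, the latter with a change of sign on 1 other scale given below, while Ezh2 did not pass the test. Eed had 208 and 236 counts against 474 and 506 in the scrambled libraries, which is 33.5 and 38.5 CPM against 54.0 and 57.8 CPM. Both values lay below those of the other 6 libraries, whose lowest was 47.2 CPM in DMSO. The level was 0.644 of that in the scrambled libraries, a log2 fold change of -0.64 ± 0.14 (SE, adjusted p = 0.00083, edgeR, n = 2 against 2). Suz12 had 43.3 and 51.7 CPM against 34.1 and 33.0 CPM, and the highest of the other libraries was 36.9 CPM. It rose 1.42-fold, a log2 fold change of 0.50 ± 0.14 (adjusted p = 0.00725), but was lower (-0.83, adjusted p = 1.27e-05) when libraries were scaled by TMM over all genes past a low-count filter. So 1 member rose and 1 fell of 8, where 39.9% of all expressed genes passed the test, 19.4% higher and 20.5% lower. The median of the 8 was 0.17, and that of all expressed genes was -0.0062.

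The scale decides what these directions are relative to. Scaling by TMM over all genes past the low-count filter lowered the log2 fold changes of the 8 members by a median of -1.34, and plain ERCC sums raised them by 0.62. On that ERCC scale Eed was at -0.0052 ± 0.33 (adjusted p = 0.992) and Suz12 at 1.14 ± 0.33 (adjusted p = 0.00386). With the expected background subtracted, Eed gave -0.57 (adjusted p = 0.00337) and Suz12 0.59 (adjusted p = 0.00372). With genes at 3-fold over background Eed was called and Suz12 was not. With ERCC TMM scaling neither was called, and with TMM over abundant ERCC RNAs Suz12 alone was. Without library r4 of the libraries labelled Chd4 shRNA, or without scrambled library r3, Suz12 missed the threshold (0.37 and 0.48, adjusted p = 0.14 and 0.0554).

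The other expressed members gave smaller values in this comparison, and none was called in the main fit. With TMM over all genes past the low-count filter each was called lower. With plain ERCC sums Cbx7, Ezh2 and Jarid2 were called higher, and at 3-fold over background Pcgf6 was called. Ezh2 had 88.3 and 89.5 CPM against 80.5 and 70.5 (0.24 ± 0.14, adjusted p = 0.173) and passed as higher on genes at 30-fold over background (0.42, adjusted p = 0.0247) and with background subtracted (0.37, adjusted p = 0.0381), but as lower with TMM over all genes past the low-count filter (-1.10, adjusted p = 7.52e-08). Jarid2 had 54.1 and 53.5 against 53.2 and 39.0 (0.22 ± 0.15, adjusted p = 0.242). In both genes the libraries did not overlap, as held for 72.9% of expressed genes here. Mtf2 had 70.2 and 72.7 CPM against 76.1 and 58.0 (0.092 ± 0.15, adjusted p = 0.648). Rnf2 had 17.4 and 23.8 CPM against 18.2 and 19.4 (0.13 ± 0.17, adjusted p = 0.58). Cbx7 had 64.1 and 57.1 CPM against 58.7 and 46.5 (0.20 ± 0.15, adjusted p = 0.288), and Pcgf6 21.6 and 20.7 against 20.6 and 24.8 (-0.10 ± 0.15, adjusted p = 0.623). The libraries of these last 4 genes overlapped between groups.

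Kdm2b and Ring1 stood closest to background in the libraries labelled Chd4 shRNA, though other members were not far above. Kdm2b lay at 2.85 and 2.58 times background, Pcgf6 at 3.93 and 3.51 and Rnf2 at 3.86 and 4.91. Background was 25.4% and 28.5% of the Pcgf6 count and 25.9% and 20.4% of the Rnf2 count. With genes at 3-fold over background both were among 4 members called, 1 higher and 3 lower. With TMM over all genes past the low-count filter all 10 members were called lower. The values that follow are from the fit without a filter. Kdm2b, the longest member by exon at 10.9 kb, had 210 and 202 counts, of which 73.7 and 78.3 were expected from background, against 167 and 152 counts in the scrambled libraries with 14.4 and 19.9 expected. Its log2 fold change in the fit without a filter was 0.88 ± 0.17 (adjusted p = 0.000391). In CPM per kb this is 3.07 ± 0.06 against 1.67 ± 0.11 (SD, n = 2), and with each library's background subtracted 1.94 ± 0.12 against 1.49 ± 0.15. Ring1 had 33 and 34 counts, 1.50 and 1.46 times the 22.0 and 23.4 expected, against 52 and 55 counts with 4.29 and 5.95 expected. Its log2 fold change was -0.17 ± 0.21 (adjusted p = 0.5), and the subtracted levels were 0.54 ± 0.009 against 1.70 ± 0.035 CPM per kb. Even the best-expressed members stood only 12.1 and 11.4 times (Ezh2) and 11.3 and 10.9 times (Mtf2) above background there, compared with 50.4 to 94.8 and 48.6 to 88.6 times in the other libraries.

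**Figure D3:**
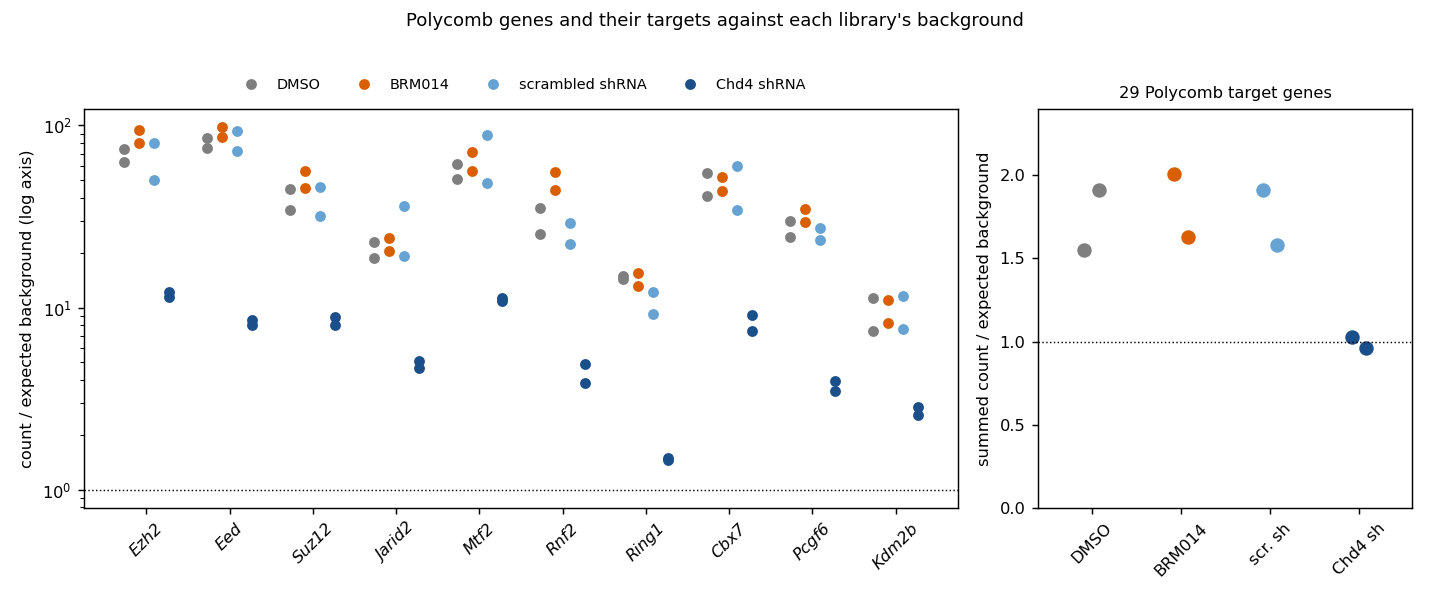
Left, count of each Polycomb gene divided by the count expected from background in the same library (log axis, 1 point per library, dotted line at 1). Right, the same ratio for the summed counts of 29 Polycomb target genes (linear axis); in the libraries labelled Chd4 shRNA every member lies closest to the line, Ring1 at 1.50 and 1.46, and the targets lie at 1.03 and 0.961.

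The difference between both effects was tested directly. Eed was the 1 member of 8 to pass, with its change in the libraries labelled Chd4 shRNA below that with BRM014 by a log2 difference of -0.68 ± 0.19 (adjusted p = 0.00759), where 30.8% of expressed genes passed. Without library r1 of the libraries labelled Chd4 shRNA it was -0.55 (adjusted p = 0.0885). For Rnf2 the difference was -0.44 ± 0.22 (adjusted p = 0.139), and for Suz12 0.29 ± 0.20 (adjusted p = 0.275). The rise of Rnf2 with BRM014 and that of Suz12 in the libraries labelled Chd4 shRNA are thus not shown to be particular to 1 perturbation. In other settings the difference for Rnf2 was called at 3-fold over background. With TMM over all genes past the low-count filter it was called too, among 9 members that all went lower, Suz12 included. Kdm2b gave 0.99 ± 0.23 without a filter (adjusted p = 0.00331), with the background just described.

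The control groups themselves differed in the 2 accessory PRC2 genes among the members. Jarid2 had 53.2 and 39.0 CPM in the scrambled libraries against 29.6 and 33.4 in DMSO, a log2 fold change of 0.55 ± 0.14 (adjusted p = 0.0129). Mtf2 had 76.1 and 58.0 CPM against 47.1 and 52.4 (0.43 ± 0.14, adjusted p = 0.0446). These were 2 of 8 members, both higher, where 13.1% of expressed genes passed, 7.11% higher and 5.96% lower. Both calls were lost without scrambled library r1 (0.29 and 0.20, adjusted p = 0.371 and 0.566) or DMSO library r1 (0.46 and 0.35, adjusted p = 0.0699 and 0.161), and on all 3 ERCC scales, with TMM over all genes past the low-count filter and without a filter. The call on Mtf2 was lost in 6 of 8 fits that each left out 1 library, namely also without either BRM014 library (adjusted p = 0.0677 and 0.0831) or either library labelled Chd4 shRNA (0.0809 and 0.065). It was lost as well at 3-fold (0.119) and 30-fold (0.0813) over background, with background subtracted (0.0544), with DESeq2 (0.0689), within the 4 libraries compared (0.128), with the default low-count filter added (0.0521) and with Olfr77 left out of the background (0.0558). Virus, selection, time and experiment differ together between these groups and cannot be told apart.

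Sums over each complex were also compared, with no test. The 5 PRC2 genes summed to 256 and 243 CPM with BRM014 and 220 and 243 CPM with DMSO, and to 289 and 306 CPM in the libraries labelled Chd4 shRNA and 298 and 258 CPM in the scrambled ones. The 5 PRC1 genes summed to 121 and 113 CPM with BRM014 and 102 and 123 CPM with DMSO. The ranges of these groups overlap. The PRC1 sum in the libraries labelled Chd4 shRNA was 142 and 140 CPM against 123 and 114, and with background subtracted 110 and 105 against 118 and 108.

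Likeness of pattern was measured as the root mean square difference of log2 CPM, centred per gene, over the 8 libraries. The closest pairs of members were Mtf2 with Cbx7 and Mtf2 with Jarid2, at 0.13 each, then Ezh2 with Suz12 at 0.15. Eed was the farthest from its core partners, at 0.34 from Ezh2 and 0.46 from Suz12. Among all expressed genes the nearest to Ezh2 were Zfp710 (0.043), Fkbp5 (0.046) and Immt (0.051), where the median gene stood at 0.30. The nearest to Rnf2 were Copb1 (0.058), Crebzf (0.083) and Zdhhc13 (0.086), with a median of 0.39.

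Beyond the 10 members, 49 further genes of PRC2, PRC1 and the enzymes that remove their marks were in the table, and 19 were expressed. With BRM014, 1 of the 19 rose and 0 fell, a share near the 3.12% higher and 4.63% lower among all expressed genes. The gene was Max, a DNA-binding partner of MGA in the PCGF6 form of PRC1, with 29.4 and 29.4 CPM against 20.9 and 21.3 (0.48 ± 0.13, adjusted p = 0.0204). Max was not called on the 3 ERCC scales (0.47 to 0.60) or without a filter (0.48, adjusted p = 0.127, edgeR). It was not called with DESeq2 (adjusted p = 0.0862) and was called in 5 of 8 fits that each left out 1 library.

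Of the same 19, in the libraries labelled Chd4 shRNA, 5 rose and 6 fell, which is read against the 39.9% of all expressed genes. Of 4 other PRC2 genes, 3 fell: Epop, an accessory subunit of a PRC2 form without JARID2, and the histone chaperones Rbbp4 and Rbbp7, which also belong to NuRD. Epop had 14.7 and 9.95 CPM against 26.1 and 25.0 (-1.05 ± 0.17, adjusted p = 3.55e-05). Its scrambled mean of 25.5 CPM was itself above the 17.8 CPM of DMSO (0.52 ± 0.14, adjusted p = 0.0171, edgeR). Between these controls 3 of the 19 were higher (Epop, Fbrsl1 and Foxk2) and 0 lower, where 7.11% of expressed genes were higher and 5.96% lower. Rbbp7 had 49.0 and 58.1 CPM against 75.9 and 78.0 (-0.52 ± 0.14, adjusted p = 0.00485), and Rbbp4 82.1 and 77.1 against 109 and 103 (-0.42 ± 0.13, adjusted p = 0.0164). On the scale of plain ERCC sums Rbbp7 (0.11) and Rbbp4 (0.19) were not lower, and Epop gave -0.50 (adjusted p = 0.227). With genes at 30-fold over background the calls on Rbbp4 (-0.23, adjusted p = 0.114) and Rbbp7 (-0.33, adjusted p = 0.0825) were lost. Rbbp4 was called in 4 and Rbbp7 in 7 of 8 fits without 1 library.

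Of 11 other PRC1 genes, 3 rose and 3 fell, where 19.4% of all expressed genes were higher and 20.5% lower. Mga, the DNA-binding scaffold of the PCGF6 form, had 139 and 148 CPM against 89.5 and 63.2 (0.91 ± 0.15, adjusted p = 6.08e-05). Wdr5, a WD40 protein shared with histone H3 lysine 4 methylases, had 63.9 and 62.3 CPM against 113 and 120 (-0.89 ± 0.14, adjusted p = 2.72e-05). Skp1a, a ubiquitin ligase subunit found with KDM2B, fell by 0.78 ± 0.14 on the log2 scale (adjusted p = 0.000138), and Phc1, a Polyhomeotic subunit of canonical PRC1, by 0.60 ± 0.14 (adjusted p = 0.00143). On all 3 ERCC scales these falls lost their calls, with values on plain ERCC sums of -0.28 for Wdr5 (adjusted p = 0.507), -0.13 for Skp1a (0.765) and 0.025 for Phc1 (0.959). Usp7 (0.42, adjusted p = 0.0183) and Pcgf2 (0.47, adjusted p = 0.0329) also rose and are named after their values were seen. Both calls were lost at 3-fold over background (0.040 and 0.083) and without r4 of the libraries labelled Chd4 shRNA (0.32 and 0.40) or scrambled library r3 (0.29 and 0.31), and that on Pcgf2 also without r1 of those labelled Chd4 shRNA (0.55, adjusted p = 0.072) and with DESeq2 (adjusted p = 0.0849). The 4 expressed genes of mark removal were the H2A deubiquitinase Bap1 and 3 of its partners. Of these Mbd6 (0.78 ± 0.17, adjusted p = 0.000989) and Asxl1 (0.70 ± 0.15, adjusted p = 0.000637) rose, while Bap1 itself gave -0.14 (adjusted p = 0.504) and Foxk2 0.13 (adjusted p = 0.528). At 3-fold over background the calls on Asxl1 (0.32, adjusted p = 0.0793) and Mbd6 (0.39, adjusted p = 0.0517) were lost too, while Mga was still called (0.53, adjusted p = 0.00444). The genes that rose were lower with TMM over all genes past the low-count filter (Mga -0.43, Mbd6 -0.56, Asxl1 -0.63, Pcgf2 -0.87, Usp7 -0.91). With plain ERCC sums each of them was called higher. With ERCC TMM scaling none was called (edgeR adjusted p of 0.0517 for Mga, 0.131 for Mbd6, 0.144 for Asxl1, 0.293 for Usp7 and 0.312 for Pcgf2). With TMM over abundant ERCC RNAs the call on Usp7 was lost (0.0535). Of the 11 calls, 10 were also made after subtraction of the background, Pcgf2 being the other.

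**Figure D4:**
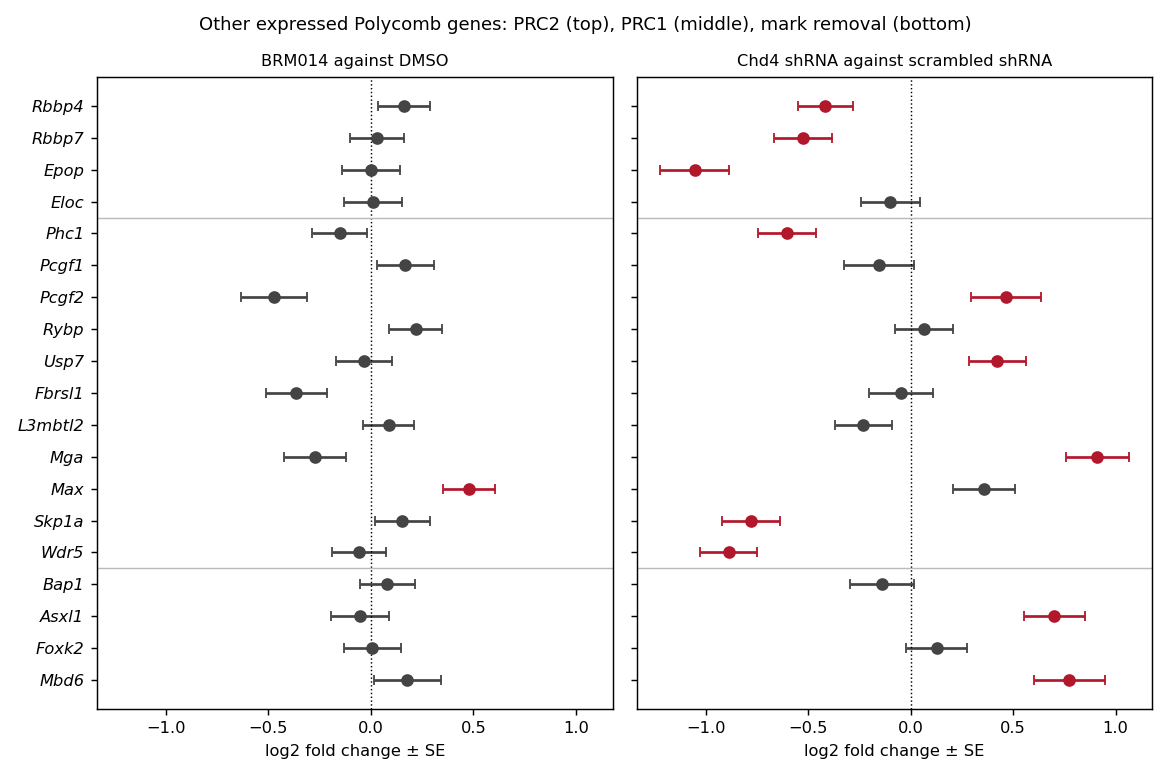
Log2 fold change with its SE for 19 other expressed Polycomb genes, for BRM014 against DMSO (left) and for the libraries labelled Chd4 shRNA against scrambled (right); red points passed the test. Max (0.48) is the red point on the left, and on the right the values run from -1.05 (Epop) to 0.91 (Mga).

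Developmental genes known as Polycomb targets in mouse embryonic stem cells lay near background in sum. Of 30 listed, 1 was expressed: Cdkn2a, which encodes cell cycle inhibitors, had 25.7 and 26.6 CPM with BRM014 against 33.0 and 27.7 (-0.21 ± 0.13, adjusted p = 0.393) and 28.2 and 29.4 CPM in the libraries labelled Chd4 shRNA against 20.5 and 26.1 (0.30 ± 0.15, adjusted p = 0.121). The other 29 together had 337 and 435 counts with BRM014, 2.01 and 1.63 times the background expected, and 413 and 515 counts with DMSO, 1.55 and 1.91 times. In the scrambled libraries the ratio was 1.91 and 1.58, and in the libraries labelled Chd4 shRNA 1.03 and 0.961. In each of 6 libraries 5 of the 29 lay at least 3-fold above background, and in the libraries labelled Chd4 shRNA 0 did. With so high a background a low level of these genes was not detectable there.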

How the data were processed

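Nascent RNA was counted in 8 libraries in 4 groups of 2; 40 chromatin immunoprecipitation samples were not analysed here. The deposited values are raw counts of reads per gene for 55376 mm10 genes and counts of 92 ERCC RNAs. Per the submitters' processing notes, the tools were Trim Galore 0.6.4, STAR 2.7.1a, featureCounts and edgeR 3.32.1. The kit was directional; the strand counted is not given in the sources used here. Column r4 of Chd4 shRNA and column r3 of scrambled have no title with that number and were assigned by the group in their name.

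All 8 libraries were fitted together with edgeR 4.0.16 (R 4.3.3; quasi-likelihood F test, group as the only term) on the 8272 genes with a mean count at least 10 times the mean background (3.34 counts per kb of exon over 5334.1 kb), with TMM over these genes. Values are therefore relative to other expressed genes. Calls were made at a Benjamini-Hochberg adjusted p under 0.05 over all genes fitted. Ring1 and Kdm2b come from a fit without a filter on low counts. An exact permutation test of 2 against 2 libraries cannot go below 0.333. The fits were tested on simulated data. The replicate numbers of the BRM014 and DMSO libraries were not taken as pairs. The differences between r1 and r2 in both groups correlated at -0.18 over genes. With so few libraries this cannot show whether they were paired.

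The members and lists were chosen with earlier results of these data known. Named were all members, called genes of the wider lists (at most the 4 smallest p per list) and the 3 genes nearest to Ezh2 and to Rnf2. Alternatives were ERCC scalings, other filters, background subtraction, DESeq2 1.42.0, a robust fit, own libraries, the replicate block and leaving out each library. Added after the data were seen were a default low-count filter, a background without Olfr77, crossed pairs, and subtraction for the other Polycomb genes. Promoters are from RefSeq (GRCm38.p6; 10 of 10 members matched), and figures were drawn with matplotlib 3.10.9.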

Additional observations from a re-analysis of the deposited data

Results flagged for a closer look

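Eed was flagged because its effects in the 2 perturbations differed by their own test, which 30.8% of all expressed genes also passed. Its log2 change in the libraries labelled Chd4 shRNA minus that with BRM014 was -0.68 ± 0.19 (adjusted p = 0.00759, edgeR). The levels were 33.5 and 38.5 CPM against 54.0 and 57.8 CPM in the scrambled libraries, and 49.9 and 49.8 CPM with BRM014 against 47.2 and 49.2 CPM with DMSO. In the libraries labelled Chd4 shRNA 12.5% and 11.7% of the Eed count was expected from background. With that background subtracted the difference was -0.62 (adjusted p = 0.0193), and on the scale of plain ERCC sums it was -0.048 (adjusted p = 0.956). Groups of 2 libraries are too small to single out a library as standing apart.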

How the results depend on the processing

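For single genes under another setting, 751 values kept their direction and their side of the threshold, 89 lost the call, 14 gained one and 70 changed sign. The number of members called was 1 with BRM014. It was 0 with ERCC TMM scaling, plain ERCC sums, TMM over abundant ERCC RNAs, no filter and DESeq2, and 0 to 1 when each library was left out. It was also 0 with genes at 30-fold over background, where Rnf2 is not among the 3 members present, and with a limit of 1 on the size of the log2 fold change, which its value of 0.57 cannot meet; no called member in any comparison has a value of that size, and Jarid2 too is absent at 30-fold. For the libraries labelled Chd4 shRNA it was 2. At 30-fold over background it was also 2, but these were Eed and Ezh2, as Suz12 is not among the members present there. It was 3 with background subtracted (Eed, Ezh2 and Suz12) and with no filter (Eed, Kdm2b and Suz12). It was 0 with ERCC TMM, 4 with plain ERCC sums, 1 with abundant ERCC, 10 (all lower) with TMM over all genes, 4 at 3-fold over background, 0 at the fold limit, and 1 to 3 without each library. For the difference it was 1. It was 0 under all 3 ERCC scalings and at the fold limit, 9 with TMM over all genes, 4 at 3-fold, 2 with no filter, and 0 to 2 without each library. For scrambled against DMSO it was 2. It was 0 under the ERCC scalings, TMM over all genes, 30-fold, no filter and the fold limit, 1 at 3-fold, with subtraction, DESeq2, own libraries, the default filter and without Olfr77, and 0 to 2 without each library. Of the other Polycomb genes, 1 was called with BRM014 (0 with DESeq2, 0 to 2 without each library) and 11 in the libraries labelled Chd4 shRNA (29, of which 26 lower, with TMM over all genes; 8 to 12 without each library).

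Over all genes, called genes with BRM014 numbered 641 as reported, 2 with ERCC TMM, 104 with plain ERCC sums, 70 with abundant ERCC, 257 at 30-fold, 1266 at 3-fold and 297 with DESeq2. With Chd4 shRNA as the label 3301 were called, 1607 higher and 1694 lower; with plain ERCC sums 2836 were higher and 62 lower, and the median of all genes was 0.59. With the replicate block 1 member was called with BRM014 and 1 for the difference, with 754 and 2541 genes in all, and the block changed no call on a member. With the numbers crossed, the counts were 1 and 1, and 827 and 2901 genes.

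The log2 values below changed sign; unless a value or the setting itself shows it, the cause was not tested. With TMM over all genes, in the libraries labelled Chd4 shRNA, they were Ezh2 -1.10, Suz12 -0.83, Jarid2 -1.11, Mtf2 -1.25, Rnf2 -1.20, Cbx7 -1.13, Pcgf2 -0.87, Usp7 -0.91, Mga -0.43, Asxl1 -0.63 and Mbd6 -0.56. For the difference they were Ezh2 -1.35, Suz12 -1.10, Jarid2 -1.13, Mtf2 -1.34 and Cbx7 -1.04. For scrambled against DMSO they were Ezh2 -0.075, Suz12 -0.0094, Cbx7 -0.026 and Pcgf6 -0.053, and for BRM014 Jarid2 0.015. At 3-fold over background they were Ezh2 -0.15, Jarid2 -0.16, Mtf2 -0.29, Rnf2 -0.26 and Cbx7 -0.18 in the libraries labelled Chd4 shRNA, Ezh2 -0.37, Suz12 -0.12, Jarid2 -0.14, Mtf2 -0.36 and Cbx7 -0.057 for the difference, and Ezh2 -0.0019 for scrambled against DMSO. With ERCC TMM they were Jarid2 0.056 (BRM014), Pcgf6 0.088 (Chd4 shRNA), and Ezh2 -0.15, Suz12 -0.10, Cbx7 -0.14 and Pcgf6 -0.12 (scrambled against DMSO). With plain ERCC sums and then abundant ERCC, Pcgf6 was 0.50 and 0.35 and Rbbp4 0.19 and 0.043 (Chd4 shRNA), Rnf2 0.23 and 0.068 and Pcgf6 0.41 and 0.24 (difference), and Rnf2 0.36 and 0.39 (scrambled against DMSO). With plain ERCC sums Rbbp7 was 0.11 and Phc1 0.025 (Chd4 shRNA). Without each library, values that changed sign ran, with BRM014, from -0.15 to 0.047 for Jarid2, -0.050 to 0.13 for Mtf2, -0.31 to 0.0080 for Cbx7 and -0.0027 to 0.19 for Pcgf6. For those labelled Chd4 shRNA they ran from -0.092 to 0.33 for Mtf2, -0.11 to 0.36 for Rnf2 and -0.20 to 0.034 for Pcgf6. For the difference they ran from -0.040 to 0.18 for Ezh2 and -0.12 to 0.30 for Mtf2. For scrambled against DMSO they ran from -0.045 to 0.17 for Ezh2, -0.23 to 0.14 for Rnf2, -0.081 to 0.28 for Cbx7 and -0.035 to 0.20 for Pcgf6. Ring1 had 33 to 127 counts per library, and background was 66.6% and 68.7% of its count in the libraries labelled Chd4 shRNA.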
